A study of Mus musculus with 6 samples.

Results

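Claudins are the 4-pass membrane proteins whose extracellular loops build the tight junction strands between epithelial or endothelial cells, and EpCAM is the epithelial adhesion protein that served as the sorting marker of this study. The genes examined were Epcam and the claudin genes Cldn1, Cldn3, Cldn4, Cldn5, Cldn6, Cldn7, Cldn8, Cldn12 and Cldn18, listed by name and found on the arrays by gene symbol. All 10 were among the 20866 genes that could be named, each was read by its brightest probe over the 6 arrays, and Cldn4 was the member with a further probe.

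Gene expression was measured on 6 one-colour arrays, 1 for each of 2 genotypes in 3 sorted thymic populations from C57BL/6 mice aged 1.5 to 2 weeks. The control genotype was TNFalpha-KO (here the TNF knockout) and the other TNFalpha and RelA double KO (the double knockout), so that every group lacked TNF and the groups differed in RelA, a subunit of the transcription factor NF-kB. CD4+CD25hi thymocytes, sorted as CD8α-negative and enriched in regulatory T cells, were pooled from 5 mice per genotype. Epithelial cells sorted as CD45-EpCAM+, and the CD45+EpCAM- fraction of thymic stroma, which contains macrophages or dendritic cells, came from 10 pooled thymi per genotype. T cell genes were also expressed in the CD45+EpCAM- fraction, with values given below. With 1 array per group there was no replicate of any group, and a difference between genotypes within a population has no test. The study asked what RelA does for the exit of regulatory T cells from the thymus.

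Tight junctions seal the space between neighbouring cells and limit the passage of ions and molecules. Claudins assemble along and across the junction, and the cytoplasmic scaffolds of the ZO family, such as those encoded by Tjp1 and Tjp3, anchor them to actin. EpCAM binds claudin-7 directly, and epithelia without EpCAM lose claudin protein from their contacts. In the thymus, epithelial cells form a network rather than a sealed sheet, and claudin-3 and claudin-4 are known as surface markers of cells of the medullary lineage, including those that mature into cells expressing Aire, the regulator of tissue-restricted antigen genes.

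The windows before the transcription start are shown for Epcam and for the claudin genes whose levels differed at least 2-fold between genotypes in the epithelial cells, since these are the genes the results turn on. Each is the 250 bases upstream of the outermost RefSeq start of assembly GRCm38.p6, written 5′ to 3′ on the strand of the gene. Capitals mark matches, on both strands, to the E-box (CANNTG), which is bound by helix-loop-helix and Snail or Zeb factors, and to the GC-box (GGGCGG), which is bound by Sp and Klf factors. The windows lie at chr17:87635729-87635978 (plus strand) for Epcam, chr5:134985964-134986213 (plus strand) for Cldn3, chr5:134946935-134947184 (minus strand) for Cldn4 and chr11:69964529-69964778 (plus strand) for Cldn7.
Epcam: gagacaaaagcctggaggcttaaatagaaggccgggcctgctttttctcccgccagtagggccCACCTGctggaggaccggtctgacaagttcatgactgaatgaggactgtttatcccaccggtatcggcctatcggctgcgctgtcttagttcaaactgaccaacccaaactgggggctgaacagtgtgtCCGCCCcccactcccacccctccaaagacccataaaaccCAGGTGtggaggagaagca
Cldn3: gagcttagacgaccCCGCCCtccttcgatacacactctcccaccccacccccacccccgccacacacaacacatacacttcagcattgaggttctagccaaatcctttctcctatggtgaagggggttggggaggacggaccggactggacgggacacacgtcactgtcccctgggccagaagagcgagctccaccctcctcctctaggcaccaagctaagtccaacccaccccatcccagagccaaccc
Cldn4: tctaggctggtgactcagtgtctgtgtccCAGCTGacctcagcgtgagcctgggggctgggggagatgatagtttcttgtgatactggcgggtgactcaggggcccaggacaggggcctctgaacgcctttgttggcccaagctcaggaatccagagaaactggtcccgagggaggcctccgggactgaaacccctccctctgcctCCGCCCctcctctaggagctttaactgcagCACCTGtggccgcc
Cldn7: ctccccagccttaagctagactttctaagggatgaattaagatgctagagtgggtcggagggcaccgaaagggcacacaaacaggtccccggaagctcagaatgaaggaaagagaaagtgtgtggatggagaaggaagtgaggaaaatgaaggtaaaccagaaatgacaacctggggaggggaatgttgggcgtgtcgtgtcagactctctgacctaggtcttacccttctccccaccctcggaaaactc

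The Epcam window had E-boxes starting at -187 and -19 and a GC-box at -58, counted back from the start. Cldn4 had the same kinds of match in the same order, with E-boxes at -221 and -14 and a GC-box at -44. Cldn3, which lies next to Cldn4 on chromosome 5 with no other protein-coding gene between, had a GC-box at -236 and no E-box. The outer Cldn7 window had neither, whereas the window before its second start, which lies inside the longer transcript, had E-boxes at -223, -140, -97 and -57 and a GC-box at -6.

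**Figure D1:**
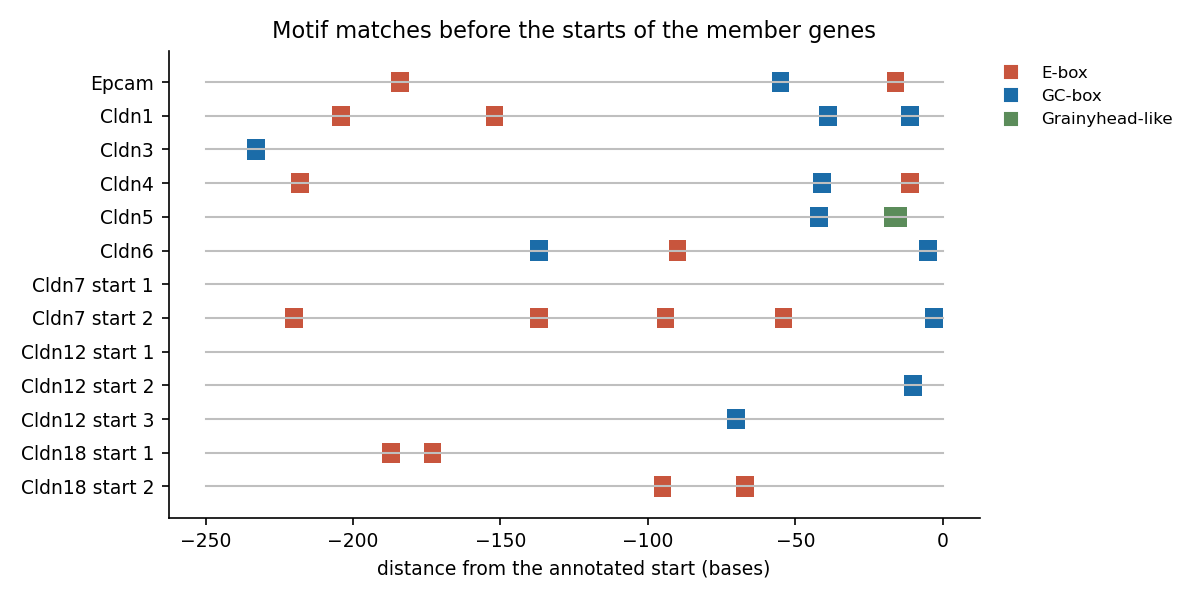
Position of E-box, GC-box and Grainyhead-like (AACCNGTT) matches before the starts of 9 of the 10 members, in bases from the transcription start. Each line is 1 start and each mark 1 match, and the Grainyhead-like mark is in the Cldn5 window. The Epcam and Cldn4 windows each have 2 E-boxes and 1 GC-box, and the outer Cldn7 window has no mark.

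A window was found for 9 members, with 13 starts between them, and not for Cldn8. The 3 windows of Cldn12 overlap, and the GC-box found at -13 in one and at -73 in another is 1 site counted for both. A GC-box was in 9 of the 13 windows, against 32.7% of all 32817 windows of that length, and an E-box in 7, against 66.2%. The Grainyhead-like motif AACCNGTT was found once, in the window of Cldn5 (at -20), and is held by 1.78% of all windows. Neither the kappaB consensus of NF-kB, held by 7.25% of all windows, nor TATAAA, held by 12.4%, was in any of the 13. A match is a run of letters and not a shown binding site, and the lack of one says only that these letters are not in this window.

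The 75th percentile of the signal lay between 108 and 675 on the 6 arrays, lowest in the double-knockout CD45-EpCAM+ cells, where 47.2% of probes were well above background by the scanner software's test, against 55.1% to 66.2% on the other arrays. Levels are given as log2 of the processed signal minus the array's 75th percentile, so that 0 is the signal below which 75% of the probes of that array lie. A probe that failed the background test is called dim, and its level is printed as read but is not a measured amount. For folds, the array's lowest bright level took its place as the upper bound, or its own level where that was higher. Every slide held a single population, and an effect of the slide cannot be told apart from one of the population. Rela, the targeted gene, was lower in the double knockout in all 3 populations, by differences of -2.02 to -0.74 (log2). In a bulk sort, fewer cells of a type and less RNA per cell cannot be told apart.

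Epcam had levels of 2.12 in the TNF knockout and 1.49 in the double knockout in CD45-EpCAM+ cells. The levels were -3.92 and -3.09 in CD4+CD25hi thymocytes, and -4.36 and -4.36 in CD45+EpCAM- cells, all well above background. Both epithelial arrays were far above the other 4, which the gate itself sets. The means differed by 5.31 (log2) from the thymocytes and by 6.16 from CD45+EpCAM- cells, given as a description with no test. The residual signals outside the epithelial sort were small, between 21.0 and 32.8 units, against 1609 and 302 in the epithelial cells and a lowest bright signal of 11.1 to 15.3 per array.

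Cldn7, the claudin that EpCAM binds, had levels of 3.24 and 1.34 in CD45-EpCAM+ cells, TNF knockout first. It had -2.32 and -1.99 in CD4+CD25hi thymocytes and -2.61 and -2.60 in CD45+EpCAM- cells. The epithelial levels were the highest in each genotype, and the ranges of the other populations lay close together. By limma, with genotype as a covariate and p-values adjusted over all 14711 genes fitted, Cldn7 was 4.44 (SE 0.64, limma adjusted p = 0.00993) above the thymocytes and 4.89 (SE 0.64, limma adjusted p = 0.0082) above CD45+EpCAM- cells.

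Cldn4, a claudin that on other epithelia is the receptor of a clostridial enterotoxin, as is Cldn3, had levels of 0.49 and -0.87 in CD45-EpCAM+ cells. Its levels were -3.38 and -3.67 in the thymocytes and -3.19 and -3.27 in CD45+EpCAM- cells. It was 3.34 (SE 0.38, limma adjusted p = 0.00611) above the thymocytes and 3.04 (SE 0.38, limma adjusted p = 0.00752) above CD45+EpCAM- cells. The further Cldn4 probe read almost the same in the epithelial cells (0.50 and -0.82) and in CD45+EpCAM- cells (-3.42 and -3.71), but it was dim in the thymocytes (-6.33 and -6.01), so that the probes disagree on whether Cldn4 was above background there. Without the TNF-knockout thymocyte array, the limma adjusted p against the thymocytes became 0.0511 for Cldn4 and 0.0616 for Cldn7, and without the TNF-knockout CD45+EpCAM- array, that against CD45+EpCAM- cells became 0.0531 and 0.0582; the lone array left was assumed to vary like the others.

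Cldn3 had levels of 1.12 and -0.38 in CD45-EpCAM+ cells and was dim on the other 4 arrays. Read against the lowest bright signal of those arrays, it was at least 33.0-fold higher in the epithelial cells than in the thymocytes and at least 57.3-fold higher than in CD45+EpCAM- cells. Cldn8, which in kidney and gut forms barriers to cations, had -0.99 and -1.07 in the epithelial cells and was likewise dim elsewhere, which gives at least 12.5-fold and at least 21.8-fold. Both genes passed the filter through the epithelial arrays alone and so had to differ, and no p-value is given for them. These bounds hold for the processed signal and not under normexp background correction, which adds an offset of 50 to every signal before log2: the contrasts were then 2.88 and 3.78 (log2) for Cldn3 and 1.85 and 2.70 for Cldn8, thymocytes first.

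Cldn12, an atypical claudin without the usual C-terminal scaffold-binding motif, was well above background in CD45-EpCAM+ and in CD45+EpCAM- cells. Its levels were -0.14 and 0.08 in CD45-EpCAM+ cells, -3.76 and -3.89 in CD45+EpCAM- cells, and -4.52 and -4.70, both dim, in the thymocytes. It was 3.80 (SE 0.17, limma adjusted p = 0.00131) higher in the epithelial than in the CD45+EpCAM- cells, and at least 22.5-fold higher than in the thymocytes (limma adjusted p = 0.00102). With normexp, the contrasts against thymocytes and CD45+EpCAM- cells were smaller for the other members too, at 2.02 and 2.51 (log2) for Cldn12, 1.84 and 2.24 for Cldn4, 3.37 and 3.91 for Cldn7, and 3.32 and 4.18 for Epcam; Cldn12, Cldn4 and Cldn7 were still called.

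**Figure D2:**
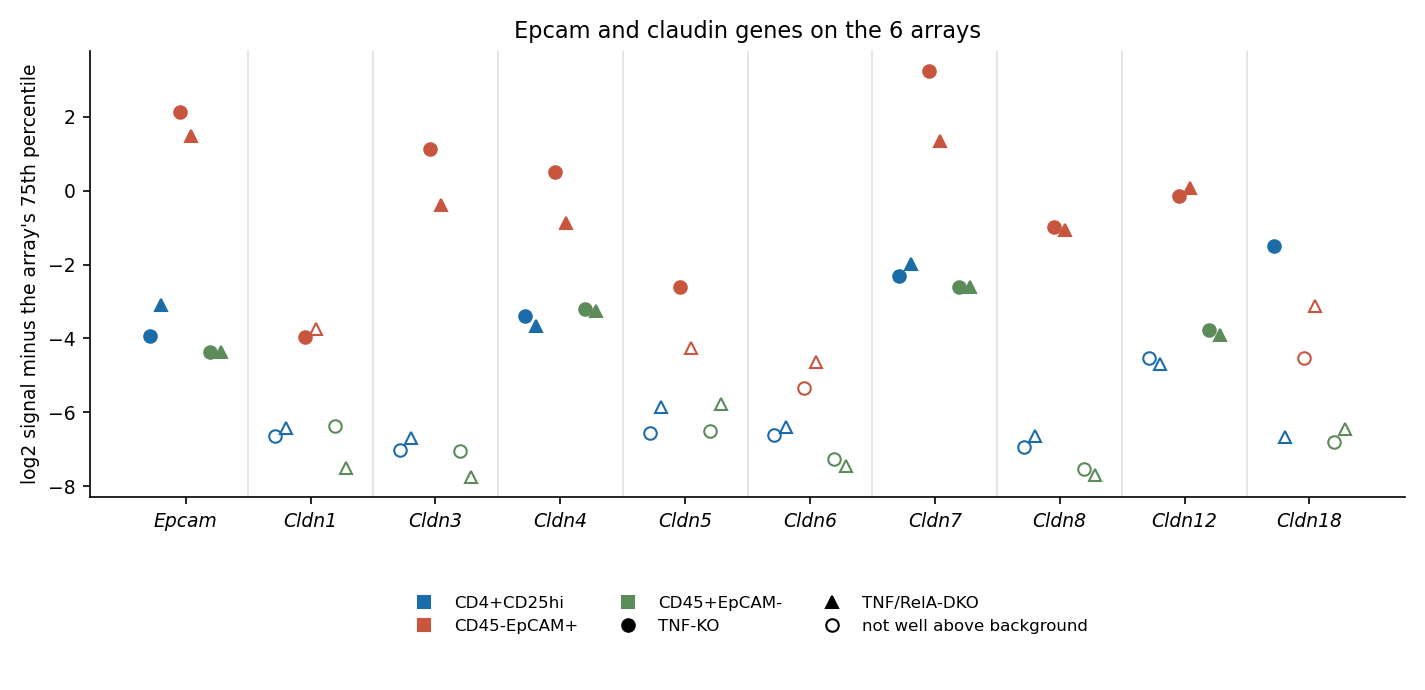
Level of each member on each of the 6 arrays, as log2 of the processed signal minus the array's 75th percentile. Colours are the populations, circles the TNF knockout and triangles the double knockout. Filled points are well above background, and open points are dim and are shown as read, not as measured amounts. Epcam, Cldn3, Cldn4, Cldn7, Cldn8 and Cldn12 are highest on the epithelial arrays, and Cldn18 has its 1 bright point in the TNF-knockout thymocytes.

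Setting aside Epcam, which the gate selects, and Cldn3 and Cldn8, which the filter selects, 3 of the members fitted remain: Cldn4, Cldn7 and Cldn12. These 3 were called higher in the epithelial sort than in the thymocytes, at 2-fold or more and a limma adjusted p of 0.05 or less, a call made for 24.1% of the genes fitted. They were also called higher than in CD45+EpCAM- cells, where the share of all genes was 22.8%. The other 4 members, Cldn1, Cldn5, Cldn6 and Cldn18, were not well above background on both arrays of any population and were not fitted. Between thymocytes and CD45+EpCAM- cells none of the 6 fitted was called, against 11.5% of genes. Cldn3 and Cldn8 were dim in both populations and could not show a difference there. Among the others the smallest limma adjusted p was 0.064, for Cldn12, dim in the thymocytes. Cldn12 had an unadjusted p under 0.05, and no other tool was run. Cldn7 differed there by 0.45 (SE 0.64, limma adjusted p = 0.657) and Cldn4 by -0.30 (SE 0.38, limma adjusted p = 0.626), thymocytes minus CD45+EpCAM- cells, so that no order of these populations is given. With 1 array per group, the error behind these p-values is the variation of the genotype effect among populations, not the spread between pools of mice.

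Within CD45-EpCAM+ cells, the largest genotype difference among the members was that of Cldn7, with 3.24 in the TNF knockout and 1.34 in the double knockout, a difference of -1.90 or 3.73-fold. Cldn3 differed by -1.50 (2.83-fold) and Cldn4 by -1.37 (2.58-fold), with 0.50 against -0.82 on its further probe. Of the 13208 genes with a fold in these cells, 2.49% had a lower difference than Cldn7, 5.07% than Cldn3 and 6.01% than Cldn4. Differences of probes for the same gene had an SD of 0.325 in this pair of arrays, which covers the reading of the probes and not the spread between pools. With normexp background correction, Cldn4 was under the 2-fold mark at -0.94.

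Epcam itself differed less than these claudins, by -0.63, and 14.3% of genes had a lower difference. Cldn8 (-0.99 against -1.07, a difference of -0.08, but 0.22 with normexp) and Cldn12 (-0.14 against 0.08, a difference of 0.22) lay within the SD between probes. Cldn5, the claudin of blood vessel endothelium, was well above background at -2.60 in the TNF knockout and dim at -4.25 in the double knockout, where the lowest bright level was -2.82, and so was at least 1.17-fold lower. Cldn1, the claudin of the epidermal barrier, was bright in the TNF knockout alone (-3.97 against -3.75, dim), which left no fold because the double-knockout array could not show that level. Cldn6, known from embryonic epithelia, and Cldn18, the claudin of stomach and lung, were dim on both epithelial arrays.

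Of the 10 members, 7 had a fold in CD45-EpCAM+ cells. Of these, 3 were at least 2-fold lower in the double knockout, against 9.3% of genes with a fold. At least 2-fold higher were 0 of the members, against 5.1% of genes with a fold. The median over the 7 members with a fold was -0.63, against 0.03 over all genes. Across the 7 settings tried, the difference ranged from -2.09 to -1.90 for Cldn7, from -1.69 to -1.22 for Cldn3, from -1.54 to -0.94 for Cldn4 and from -0.86 to -0.63 for Epcam.

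In CD4+CD25hi thymocytes Cldn18 had a level of -1.50 (signal 112) in the TNF knockout and was dim at -6.66 (signal 2.68) in the double knockout. That is at least 8.05-fold lower, read from 1 probe with 1 spot per array, and Cldn18 was dim in the other populations as well (-4.54 and -3.12 in CD45-EpCAM+ cells, -6.81 and -6.44 in CD45+EpCAM- cells). With normexp correction the bound was a difference of -1.18 (log2). Cldn18 is known in stomach and lung, and 4 of 15 markers of these organs were above background on each thymocyte array. The summed levels of the 15 were 1.12 and 1.23 times the 75th percentile. Of the 4 with a fold, 0 were at least 2-fold apart, where 1.28% of all genes were lower and 1.68% higher.

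Epcam differed by 0.83 in the thymocytes (signals of 21.0 and 31.9), more than 97.2% of genes, and by 0.33 with normexp. There Cldn7 differed by 0.33 and Cldn4 by -0.29, which turned to 0.03 with normexp and to 0.02 with the mean over probes. Of the 10 members, 4 had a fold, 1 was at least 2-fold lower, against 1.28% of genes, and 0 were at least 2-fold higher, against 1.68%. In CD45+EpCAM- cells Epcam differed by -0.01, Cldn4 by -0.08, Cldn7 by 0.01 and Cldn12 by -0.14, and the other 6 were dim on both arrays. None of the 4 was at least 2-fold lower there, against 2.08% of genes, or higher, against 1.82%. The median over the members with a fold was 0.02 in the thymocytes and -0.04 in CD45+EpCAM- cells, against -0.02 and -0.01 over all genes.

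**Figure D3:**
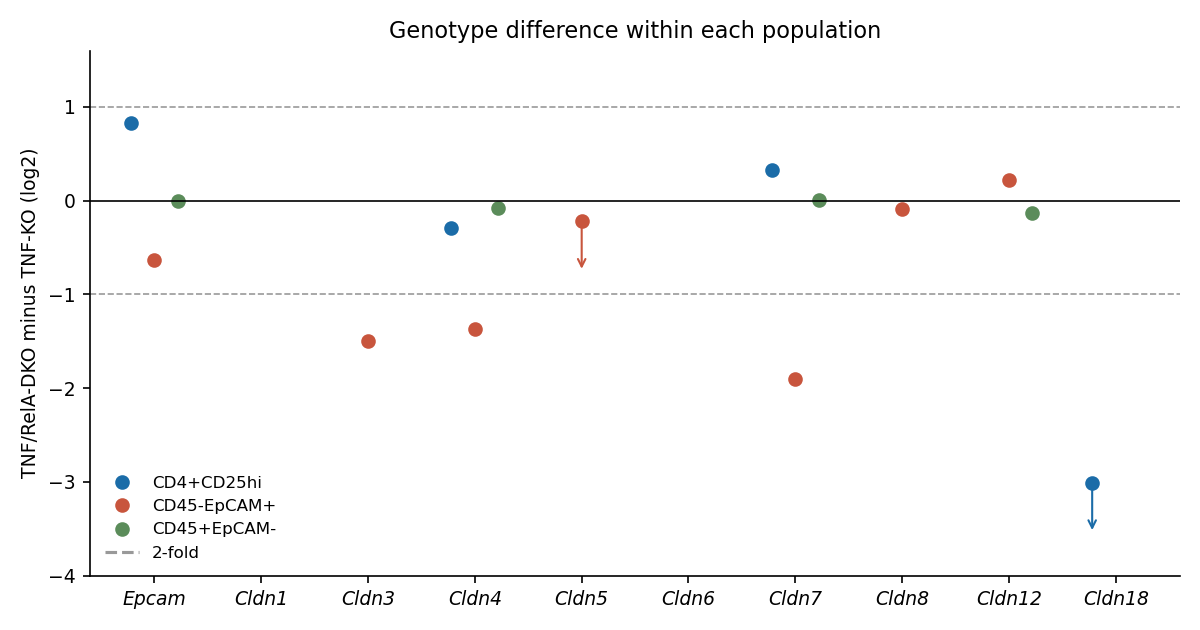
Genotype difference of each member within each population, in log2, double knockout minus TNF knockout. Each point is 1 member with a fold, and an arrow marks a bound, where 1 array was dim. In CD45-EpCAM+ cells Cldn7, Cldn3 and Cldn4 lie at -1.90, -1.50 and -1.37; Cldn1 and Cldn6 have no fold in any population.

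An effect of genotype shared by the populations was estimated by limma over 13740 genes, with population as a block. Epcam had a common difference of 0.06 (SE 0.32, adjusted p = 0.953), Cldn4 of -0.58 (SE 0.31, adjusted p = 0.679), Cldn7 of -0.52 (SE 0.52, adjusted p = 0.762) and Cldn12 of -0.03 (SE 0.13, adjusted p = 0.941). The other 6 were above background on too few arrays to enter. Of all genes 0 (0.0%) passed by limma, no other tool was run on this comparison, and 873 had an unadjusted p under 0.05. Whether the differences of Cldn7, Cldn3 and Cldn4 depend on the population cannot be tested with 1 array per group.

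Of 18 other claudin genes on the array, 10 were above background in the TNF-knockout epithelial cells and 1 in the double knockout. Over all probes, 66.2% and 47.2% were above background on these arrays. Most of the 10 had TNF-knockout levels below -2.82, the lowest bright level of the double-knockout array, which could not show them. Of the 18, 3 had a fold. Cldn13, a rodent claudin, was 3.90-fold lower (1.69 against -0.28), a difference of -1.96, and dim in the other populations. Cldn9 was at least 1.44-fold lower (-2.29 against -3.41, dim).

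Of the 26 partners of claudins at the tight junction, 20 had a fold in CD45-EpCAM+ cells and a median difference of -0.24; 4 were lower by 2-fold or more and 0 higher, where 9.3% and 5.1% of all genes were. Tjp3, the ZO-3 scaffold, had 3.19 against 1.57, a difference of -1.63. The tricellular junction protein gene Marveld2 was at least 3.25-fold lower and its relative Marveld3 at least 2.07-fold, both dim in the double knockout, and the adhesion receptor gene Cxadr differed by -1.01. The scaffold Tjp1 differed by -0.40. Between populations, 13 of the 21 partners fitted were called higher in the epithelial cells than in the thymocytes and 0 lower, where 24.1% of genes were called higher. Against CD45+EpCAM- cells 14 were called higher, where 22.8% of genes were, and 1, Magi3, lower.

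The adherens junction and desmosome genes, which share the lateral membrane with claudins, had a median of -0.03 over the 17 with a fold. Of them 1 was at least 2-fold lower, the plakophilin Pkp2 (-1.16), and 1 higher, Pkp3 (1.02), near the 9.3% and 5.1% of all genes. E-cadherin (Cdh1) had 2.28 against 2.47, a difference of 0.19. Of 16 partners and regulators of EpCAM, 15 had a fold. Of these, 1 was at least 2-fold lower, the tetraspanin Tspan8 (-1.73), and 0 higher, against 9.3% and 5.1% of all genes. Spint1 and Spint2, inhibitors of the protease matriptase that cleaves EpCAM, differed by 0.21 and -0.59, and the matriptase gene St14 by -0.09.

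Of 22 epithelial transcription factors, 18 had a fold, 4 were at least 2-fold lower, against 9.3% of all genes, and 2 higher, against 5.1%; the median was -0.25. Elf3 differed by -1.62, Grhl3 by -1.49 and Foxa1 by -1.23, whereas Grhl2, which controls claudin genes in other epithelia, had 1.42 against 1.80, a difference of 0.38. Twist1, a repressor of epithelial genes, differed by 1.55, between low levels of -4.13 and -2.58.

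Markers of epithelial subsets moved beside the claudins, and their part in the claudin differences was not tested. Of 11 medullary markers, all above background on both arrays, 8 were at least 2-fold lower in the double knockout, against 9.3% of all genes. No medullary marker was at least 2-fold higher, against 5.1% of all genes. The median difference of the 11 was -1.58. The summed level of the 11, as a multiple of the 75th percentile, was 169.6 in the TNF knockout and 115.3 in the double knockout. Krt5, the brightest of them in these cells and the largest part of the sum, had 6.44 against 6.43, a difference of -0.01. Tnfrsf11b differed by -2.27, Aire by -1.90 and Fezf2 by -1.88, whereas Krt14 differed by -0.79 and Cd80 by -0.74, both under 2-fold. The 10 cortical markers had a median of 0.62, with 0 lower and 1 higher by 2-fold, against 9.3% and 5.1% of all genes. The 6 pan-epithelial genes had a median of 0.02 with none 2-fold apart. Medullary cells express stomach and lung genes ectopically. Of 15 such genes, 13 were above background in the TNF knockout and 4 in the double knockout, against 66.2% and 47.2% of all probes. Most of their folds are therefore bounds. Of 12 with a fold, 9 were lower by 2-fold or more, against 9.3% of all genes. No such gene was higher by 2-fold, against 5.1% of all genes. Among the stomach and lung genes, Atp4b differed by -2.31 and Tff1 by -2.10, while Gkn3 differed by 0.61 (-1.69 against -1.08).

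**Figure D4:**
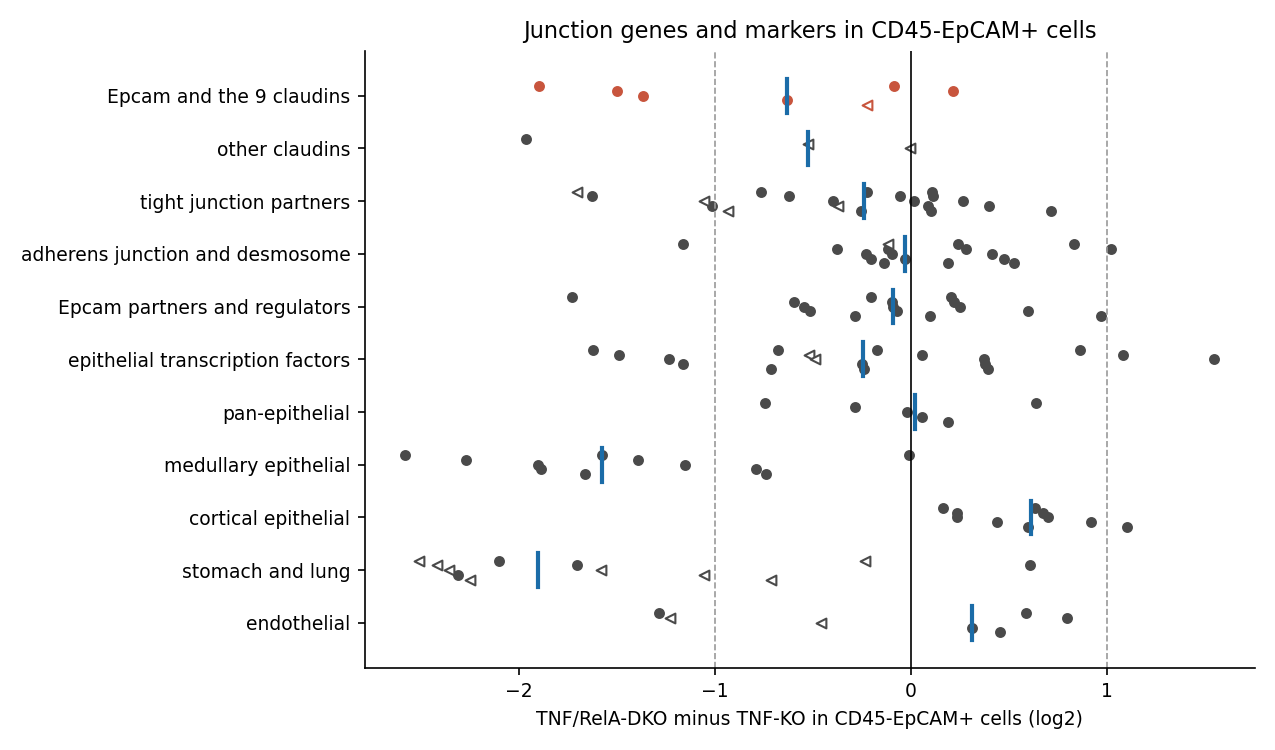
Genotype difference in CD45-EpCAM+ cells, in log2, double knockout minus TNF knockout, for the members and for each list of related or marker genes; each point is 1 gene with a fold, and the bar is the list's median. Open triangles mark bounds. The medians of the medullary list (-1.58) and the stomach and lung list (-1.90) lie below 0, and the adherens junction list (median -0.03) is centred near 0.

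Markers of other cells differed too. The 6 T cell genes with a fold had a median of 0.85 in CD45-EpCAM+ cells, and the 6 macrophage genes with a fold had 0.83. Summed over all 7 genes of each list, the levels were 56.7 and 106.1 for T cells and 32.3 and 40.5 for macrophages. At least 2-fold higher were 0 T cell genes and 1 macrophage gene, against 5.1% of all genes. Of 12 endothelial markers, which bear on Cldn5, 10 were above background in the TNF-knockout epithelial cells and 5 in the double knockout. Of all probes, 66.2% and 47.2% were above background on these arrays. The 7 endothelial markers with a fold had a median of 0.31. Plvap differed by -1.29 and Robo4 was at least 2.34-fold lower, while Kdr differed by 0.59 and Pecam1 by 0.80. Kdr and Pecam1 were brighter still in the thymocytes, at 3.15 and 4.12 for Kdr and -0.65 and -0.32 for Pecam1. The epithelial levels were 2.58 and 3.17 for Kdr and -2.84 and -2.04 for Pecam1. These 2 genes, and the median that includes them, therefore do not read endothelial cells alone. Of 9 parathyroid and thyroid markers, 5 had a fold, with a median of -0.31. Pth (13.4-fold) and Chga (2.25, log2) were higher in the double knockout and Calca (-2.25) was lower. The part of these cells in the claudin values was not tested.

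The genes most like each member were ranked by the root mean square difference of their centred log2 levels over the 6 arrays, among genes with the same background calls. For Cldn7, the nearest of 10211 genes was Aire, at 0.147, followed by Muc13 at 0.180 and Gsdma at 0.277. For Cldn4 they were Hdhd3 (0.158), Lhpp (0.193) and Mia (0.209), and for Epcam Tpm2 (0.258), Lima1 (0.297) and Cblc (0.307). Among the 698 genes bright in the epithelial sort alone, Pcp4l1 (0.0273), Plekhs1 (0.056) and Crct1 (0.0822) were nearest to Cldn3, and Slc9a2 (0.047), Dlg2 (0.0536) and Foxc1 (0.0554) to Cldn8; here 4 of the 6 values are the arrays' floors and are shared by construction. For Cldn12, B3galnt1 (0.141), Nudt17 (0.177) and Zfp105 (0.196) were nearest of 437, with both thymocyte values shared as floors. Aire had levels of 1.04 and -0.86 in CD45-EpCAM+ cells, the genotype difference of -1.90 that Cldn7 also had. The ranking used these same arrays, so a like difference is part of how Aire was picked.

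**Figure D5:**
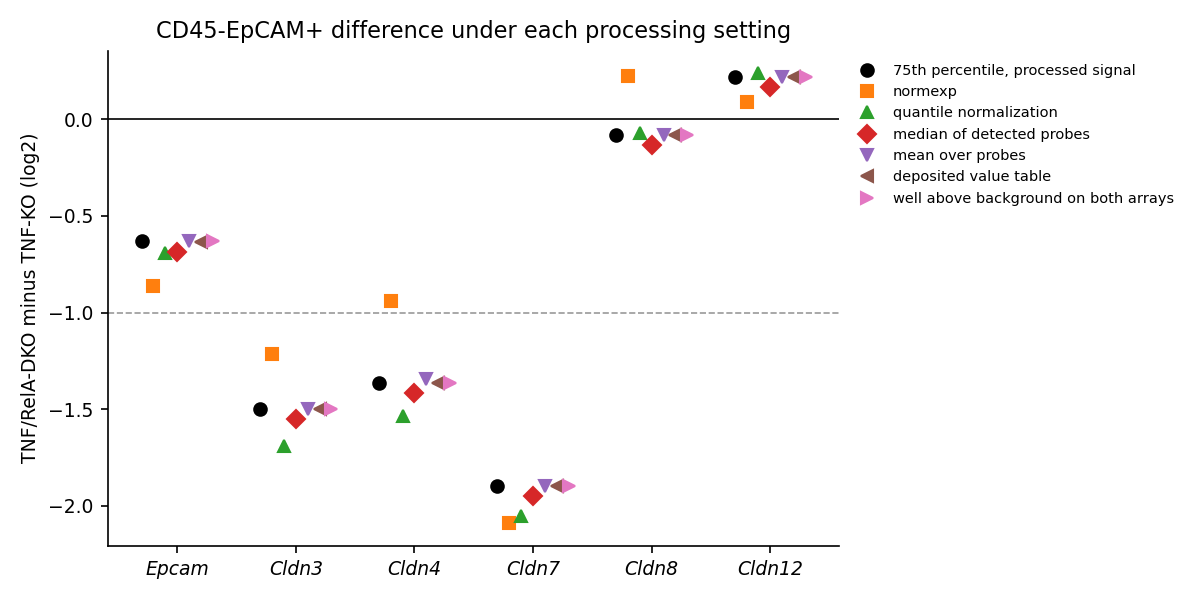
Genotype difference in CD45-EpCAM+ cells, in log2, double knockout minus TNF knockout, of the 6 members measured on both arrays under each of the 7 settings; each point is 1 setting. Cldn7 stays between -2.09 and -1.90, Cldn4 crosses the 2-fold line with normexp, and Cldn8 lies between -0.14 and 0.22.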

How the data were processed

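The genes examined and the lists were chosen with earlier results of these data known. Per the file headers, the authors extracted spot intensity values of 1-colour arrays with Feature Extraction 10.5.1.1; version 9.5 stands in the submitters' processing notes. The deposited intensity used was the background-corrected processed signal. The authors' deposited value table holds log2 values: no source states this, but they matched log2 of that signal less the 75th percentile of the array, with an offset of at most 0.0054. Its column medians lay between -3.72 and -2.72.

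From these the log2 signal minus the 75th percentile was computed, without control and outlier spots; 10 of 39429 probes were left out. Accessions were named in a gene table of GRCm38.p6, whereas the array design names mm9; 27472 probes had 1 symbol, 35 several and 11912 none. No probe was saturated. Within a population, a gene entered if well above background on at least 1 array; a dim side took the array's lowest bright value, or its own where that was higher, and the difference is given as "at least". Folds of brighter over dimmer between populations used the mean of these values.

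Populations were compared with limma 3.58.1 in R 4.3.3 on genes well above background on both arrays of at least 1 population, and called at an adjusted p of 0.05 and 2-fold; the common fit took genes bright on at least 3 arrays. P-values were adjusted by Benjamini-Hochberg. Both fits have 2 residual degrees of freedom and were tested on simulated data. Named besides the members were the 4 genes of a list with the largest difference in CD45-EpCAM+ cells and the 2 brightest of a marker list. The 3 genes most like a member were also named. Tjp1, Magi3, Cdh1, Grhl2, Spint1, St14, Krt5, Krt14 and Cd80 were added after their values were seen. A few genes under this rule are not reported here. Normexp (offset 50) used the median spot signal, not the mean signal planned, since the files used hold no mean. Other alternatives were quantile and median scaling, the mean over probes, the deposited table, other filters and leaving out each array.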

Additional observations from a re-analysis of the deposited data

How the results depend on the processing

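No difference or contrast of a member that was called changed direction. Of those not called, Cldn8 in CD45-EpCAM+ cells turned from -0.08 to 0.22 with normexp, and Cldn4 in the thymocytes from -0.29 to 0.03 with normexp and 0.02 with the mean over probes. The member at least 2-fold lower in CD4+CD25hi thymocytes, Cldn18, went to 0 when both arrays had to be above background. For all genes, normexp gave 18 lower and 33 higher in the thymocytes, 571 lower in CD45-EpCAM+ cells, and 108 lower and 66 higher in CD45+EpCAM- cells; with both arrays above background the counts were 97 and 125 in the thymocytes, 751 lower in CD45-EpCAM+ cells and 174 higher in CD45+EpCAM- cells. With no filter on dim genes, limma called 5578 genes higher in CD45-EpCAM+ cells than in thymocytes, 6250 higher than in CD45+EpCAM- cells, and 440 between the last 2. Leaving out each array, these counts ranged from 2378 to 3684, from 2037 to 3487 (2037 and 2096 with only 1 CD45+EpCAM- array, the first without that of the TNF knockout) and from 0 to 2360 (0 without either thymocyte or either CD45+EpCAM- array); fewer arrays leave 1 residual degree of freedom. The cause of the other shifts was not tested. Of the other values of the main comparisons, 143 stayed within 1.5 times. The labels carry no replicate numbers to pair by; population was the block of the common fit.

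The low signal of the double-knockout CD45-EpCAM+ array limits Cldn1, Cldn5, Cldn6, Cldn18 and most of the other claudin genes there. Its lowest bright level was -2.82, against -4.78 in the TNF knockout.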
